A study of Mus musculus with 5 samples.

Results

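The Clec genes encode proteins of the C-type lectin superfamily, and their transcripts were read on arrays of pancreatic CD45+ cells (CD45 marks leukocytes) from 5 female NOD mice. The members are all genes whose single symbol in the platform annotation is Clec followed by a digit, apart from Clec16a, which encodes no lectin. There were 32 of them among the 19938 genes with a probe set of their own symbol, and 7 had a mean log2 intensity of at least 6, the level used here to call a gene expressed. Over all genes 33.1% reached this level.

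The mice were WT NOD females of 10 weeks, a strain that becomes diabetic spontaneously by an autoimmune attack on the islets. They form 1 group, with no second strain, treatment or untreated control, and all carry the NOD background. Each pancreas was imaged by MRI before it was removed, and the labels give 1 T2 value, a relaxation time of the tissue, for each animal: 28.98 ms and 30.02 ms in mice 5 and 4, 32.77 ms in mouse 3, and 35.24 ms and 35.3 ms in mice 2 and 1. The question of the series was which transcripts vary with the MRI signal, so the comparison is the slope of each gene on T2. Since T2 runs in the order of the mouse numbers, an effect of handling in that order cannot be told apart from T2.

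C-type lectin receptors recognise sugars, lipids or proteins of microbes, dead cells and other cells through a shared lectin-like fold. Many are myeloid pattern recognition receptors. Some activate the cell through the kinase Syk, either by a tyrosine motif of their own, the hemITAM, or through the ITAM adaptors Fc receptor gamma chain and DAP12. Others carry an ITIM motif that recruits phosphatases and restrains the cell. A further branch, the Clr proteins of the Clec2 group, are ligands for NKR-P1 receptors of natural killer cells. In the mouse most members lie in gene clusters on chromosome 6, and 25 of the 32 measured here are on that chromosome, including all 7 that were expressed.

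Ptprc, which encodes CD45, had intensities between 1962 and 2357 in the 5 mice. Array medians lay between 23.8 and 24.5, and a mean log2 of 6 corresponds to an intensity of 64. A probe set responds to its own target with its own efficiency, so levels are set against this threshold and not against those of other members. Markers of the sorted cells and of others the sort could carry were read in the same arrays. The summed intensity of 7 T cell genes was between 2850 and 4761, that of 6 B cell genes between 2752 and 5136 and that of 9 macrophage genes between 2159 and 4848. Of the lists for non-leukocytes, no endothelial, fibroblast or islet endocrine gene was expressed, and their summed intensities were 72.4 to 82.5 over 6 genes, 154 to 182 over 6 genes and 77.0 to 89.8 over 5 genes. Of 5 acinar genes 3 were expressed, with a sum between 456 and 896. Among 5 platelet genes only Itgb3, an integrin chain that other leukocytes also carry, was expressed, while Ppbp, a platelet chemokine, had a mean log2 of 3.23. No gene is listed at 0 in these values.

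**Figure D1:**
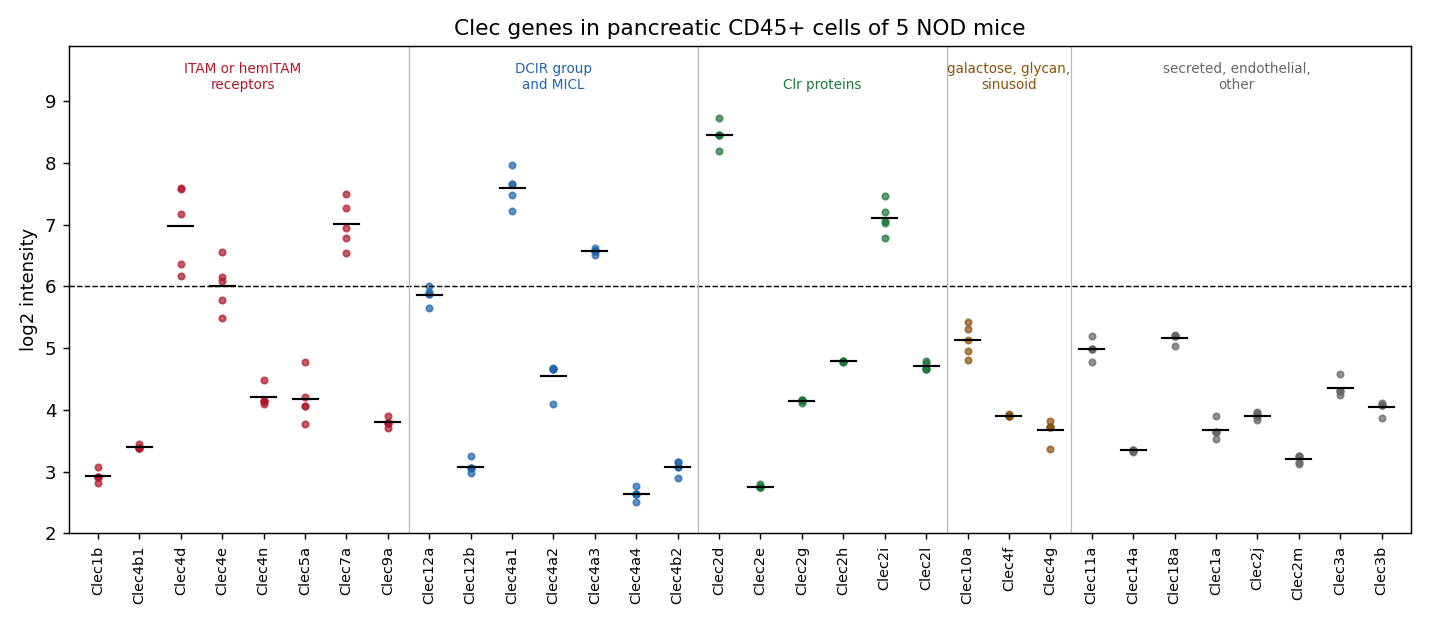
Log2 intensity of the 32 Clec genes, ordered by role and then by name. Points are the 5 mice, black bars their means, and the dashed line is the log2 level of 6. The genes past the line are Clec4d, Clec4e, Clec7a, Clec4a1, Clec4a3, Clec2d and Clec2i; heights of different genes are not comparable, since each probe set has its own efficiency.

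The activating receptors of the myeloid lineage gave 3 expressed genes of 8. Clec4d encodes MCL, a receptor of myeloid cells that signals through the Fc receptor gamma chain. It had intensities of 193 and 145 in mice 5 and 4, 192 in mouse 3, and 82.5 and 72.4 in mice 2 and 1. The 3 mice with T2 values below 33 ms were thus above both mice with T2 values above 35 ms, without overlap, and mouse 3 was as high as mouse 5. Its mean log2 intensity was 6.98 ± 0.67 (SD, n = 5), the largest SD among the 32 members. Of all expressed genes 67.9% had a negative slope on T2. The share of genes in which these 3 mice were above the other 2 was not counted, here or for the members below.

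Clec4e encodes Mincle, the receptor for the mycobacterial glycolipid trehalose dimycolate and for a protein released by dying cells, and it pairs with MCL at the surface. Mincle transcripts gave 94.3 and 71.0 in mice 5 and 4, 68.1 in mouse 3, and 44.7 and 54.7 in mice 2 and 1. The same 3 mice were above the same 2, and mice 1 and 2 were below the intensity of 64 that corresponds to the expression level. With a mean log2 of 6.01 ± 0.41 (SD, n = 5) Clec4e was the member just inside the level, and it fell outside it when mouse 3, 4 or 5 was left out, at means of 5.99, 5.98 and 5.87.

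Clec7a encodes dectin-1, the hemITAM receptor for fungal beta-glucans found on macrophages, dendritic cells, monocytes and neutrophils. It had intensities of 155 and 110 in mice 5 and 4, 181 in mouse 3, and 93.7 and 123 in mice 2 and 1. Mouse 3 was highest and mouse 2 lowest, and the mice of low and high T2 overlapped. The mean log2 intensity was 7.01 ± 0.38 (SD, n = 5).

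The other 5 receptors of this branch stayed under the expression level. Clec4n, which encodes dectin-2, a receptor for fungal mannans, had a mean log2 of 4.20 ± 0.16, and Clec5a, which encodes the DAP12-coupled receptor MDL-1 of monocytes and neutrophils, had 4.17 ± 0.37 (SD, n = 5). Clec5a read 18.5 and 16.7 in mice 5 and 4, 27.3 in mouse 3, and 13.7 and 16.7 in mice 2 and 1. Mouse 3 was the highest here as it was for Clec7a. Clec9a, which encodes DNGR-1, the receptor of cross-presenting dendritic cells for actin exposed by dead cells, had a mean log2 of 3.80 ± 0.064. Clec1b, which encodes CLEC-2, the podoplanin receptor of platelets, had 2.93 ± 0.097, and Clec4b1, which encodes the dendritic cell receptor DCAR, had 3.40 ± 0.030 (SD, n = 5 each). Apart from Clec5a in mouse 3, the values of these 5 genes lay below the array medians. A value under the level does not show that a transcript was absent.

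Of the group around the inhibitory receptor DCIR, 2 of 7 members were expressed. Clec4a1, a DCIR relative also called DCIR4, had intensities of 203 and 178 in mice 5 and 4, 203 in mouse 3, and 150 and 250 in mice 2 and 1. The lowest and highest values came from mice 2 and 1, whose T2 values differ by 0.06 ms, with a ratio of 1.66 for mouse 1 over mouse 2. Clec4a3, also called DCIR3, had intensities of 95.8 and 91.3 in mice 5 and 4, 95.8 in mouse 3, and 95.8 and 98.4 in mice 2 and 1. Of the 7 expressed members it varied least, with an SD of 0.039 on the log2 scale, and its value was equal on 3 arrays.

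Clec12a, which encodes MICL, an ITIM receptor of myeloid cells that senses uric acid crystals, was the member just outside the expression level, with a mean log2 of 5.86 ± 0.13 (SD, n = 5). Its intensities were 58.8 and 50.1 in mice 5 and 4, 58.8 in mouse 3, and 59.9 and 64.0 in mice 2 and 1. Mouse 4 was the lowest, and only mouse 1 reached 64. Clec4a2, which encodes DCIR itself, had a mean log2 of 4.55 ± 0.25, with 17.2 in mouse 4 and 25.3 to 25.7 in the others. Clec4a4, which encodes DCIR2, a marker of a conventional dendritic cell subset, had 2.64 ± 0.093, and Clec12b and Clec4b2 had 3.08 and 3.07. The DCIR relatives are similar in sequence, so signal could be split or shared between their probe sets, which was not tested.

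The Clr proteins and their relatives gave 2 expressed members of 6. Clec2d encodes Clr-b, a protein of most blood cells that engages the inhibitory receptor NKR-P1B on natural killer cells. It had intensities of 353 and 294 in mice 5 and 4, 353 in mouse 3, and 424 and 353 in mice 2 and 1. Its value was thus equal in mice 5, 3 and 1, lower in mouse 4 and higher in mouse 2. The mean log2 intensity was 8.46 ± 0.19 (SD, n = 5). Clec2i, which encodes Clr-g, a ligand of NKR-P1F, had 148 and 130 in mice 5 and 4, 110 in mouse 3, and 134 and 177 in mice 2 and 1, with a mean log2 of 7.11 ± 0.25 (SD, n = 5). Mice 1 and 5, at opposite ends of the T2 range, were the highest. The receptors of these ligands were under the level: Klrb1b, which encodes NKR-P1B, had a mean log2 of 5.52 ± 0.10, and Klrb1f, which encodes NKR-P1F, 5.13 ± 0.22 (SD, n = 5 each). Clec2e, Clec2g, Clec2h and Clec2l had means between 2.75 and 4.79 and SDs of at most 0.069.

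None of the remaining 11 members was expressed. Clec10a, which encodes MGL1, the galactose-type lectin of macrophages and dendritic cells, came nearest with Clec18a, a secreted protein. Clec10a had 39.6 and 35.0 in mice 5 and 4, 43.1 in mouse 3, and 27.9 and 31.0 in mice 2 and 1, a mean log2 of 5.12 ± 0.25 (SD, n = 5), and the mice below 33 ms were again above the other 2. Clec18a had 5.16 ± 0.073 (SD, n = 5). Clec11a, a secreted growth factor of bone and marrow stroma, had 4.98, and Clec3b, the plasma protein tetranectin, 4.05. Clec4f, the receptor of Kupffer cells in the liver, had 3.90, Clec4g, the liver sinusoidal lectin LSECtin, 3.67, and Clec14a, an endothelial receptor, 3.34. Clec3b, Clec4f, Clec4g and Clec14a were below the array medians, as was the mean log2 of 3.62 over the 6 endothelial marker genes. Over the 25 members that were not expressed, 20 had the same value on 3 or more arrays, against 69.2% of all genes under the level. Of the 7 expressed members 2 did, against 38.2% of all expressed genes.

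The slope of log2 intensity on T2 was fitted with limma over all 6603 expressed genes. No gene passed at a Benjamini-Hochberg adjusted p under 0.05 (0% of those tested), and so no Clec gene did; 349 genes, 5.29% of those tested, had an unadjusted p under 0.05, and 303, or 4.59%, had this with a negative slope. Of the 7 expressed Clec genes 2 had an unadjusted p under 0.05, both with a negative slope. These were Clec4e and Clec4d, which encode a receptor pair and neighbour each other on the chromosome, so they are not independent. Clec4e reached the expression level only through mice 3, 4 and 5, in which it was high, so its place among the 7 depends on the difference that was fitted, and the count is given as a description only. Negative slopes were found for 3 of the 7, against 67.9% of all expressed genes. The median slope of the 7 was 0.0033 log2 per ms, against -0.0074 over all expressed genes. Fewer cells of a type and less RNA per cell cannot be told apart in these bulk samples.

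Clec4e had a slope of -0.13 ± 0.028 log2 per ms (SE), a fitted fold of 1.76 for the lowest T2 over the highest (95% interval 1.25 to 2.48). The limma p was 0.0108 before and 0.544 after adjustment over all genes. Permuting T2 over the 120 orders of the mice, a check added after the values were seen, gave an exact two-sided p = 0.025, where the smallest possible is 0.00833. Leaving out each mouse in turn moved the slope between -0.15 and -0.10, and without mouse 5 its unadjusted p was 0.084. Like the count above, these values are a description only, since Clec4e reached the expression level through the mice in which it was high.

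Clec4d had the steepest slope of the family, -0.19 ± 0.067 log2 per ms, a fitted fold of 2.29 for the lowest T2 over the highest (1.00 to 5.23). Its limma p was 0.0498 before and 0.828 after adjustment, and the exact permutation gave p = 0.142. Without mouse 3 the slope was -0.20 ± 0.021 (unadjusted p = 0.00394, adjusted p = 0.617), and without mouse 1, 2, 4 or 5 the unadjusted p was 0.178, 0.163, 0.081 and 0.171, with slopes between -0.22 and -0.15.

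**Figure D2:**
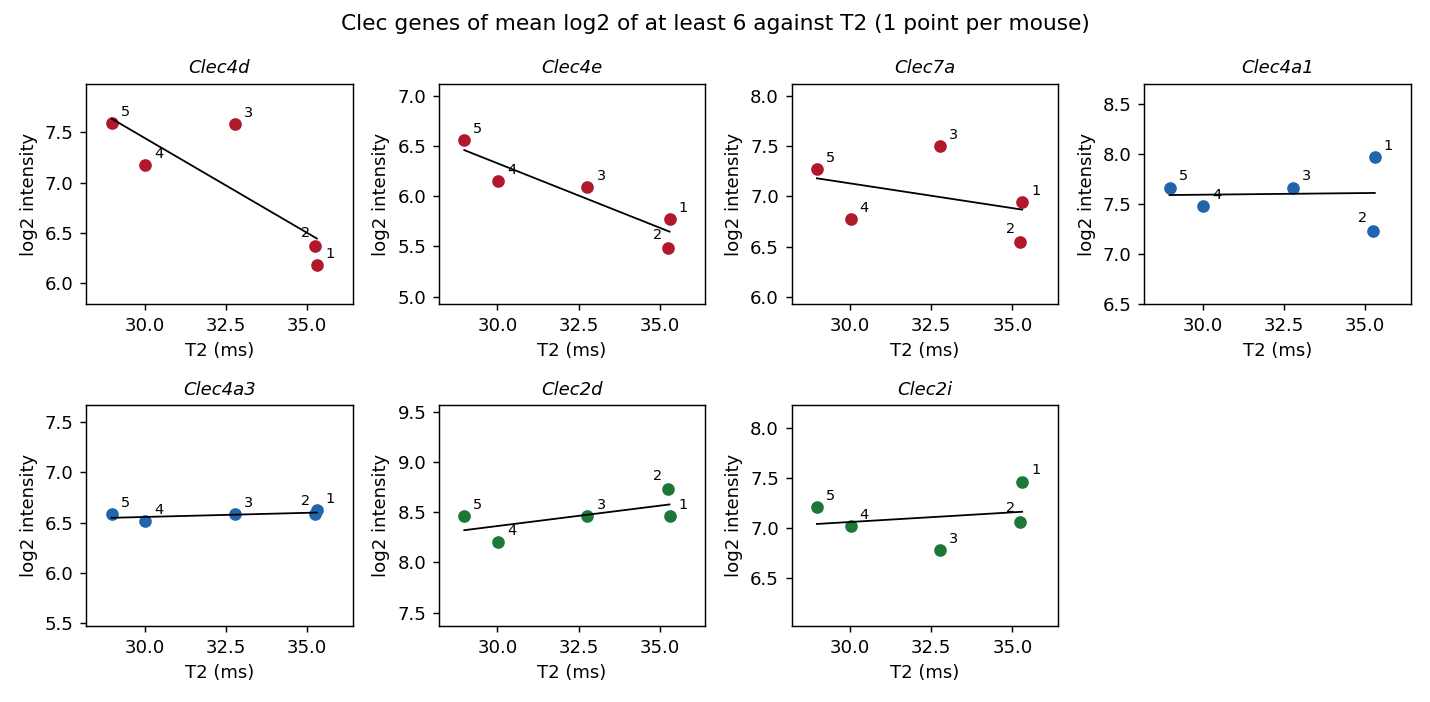
Log2 intensity of the 7 expressed Clec genes against T2 in ms, with the mouse number beside each point and the fitted line; every panel spans the same 2.2 log2 units. Clec4d and Clec4e are higher in mice 3, 4 and 5 than in mice 1 and 2, while the other panels show mice of low and high T2 at overlapping levels.

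None of the other 5 expressed members had an unadjusted limma p under 0.05. Clec7a had -0.05 ± 0.062 log2 per ms, with a fold of 1.24 for the lowest T2 over the highest (95% interval 0.58 to 2.66). Its slope was -0.0033 without mouse 2 (unadjusted p = 0.965) and -0.09 without mouse 4, the ends of its range with each mouse left out. Clec2d had 0.04 ± 0.025, a fold of 1.19 for the highest T2 over the lowest (0.873 to 1.63), and Clec2i had 0.02 ± 0.043, a fold of 1.09 (0.641 to 1.85). Clec4a1 had 0.0033 ± 0.047, with an interval from 0.566 to 1.82 for the same fold, which spans changes in either direction. Clec4a3 had 0.0083 ± 0.0064, and its interval, 0.958 to 1.12, was the narrowest of the 7. The adjusted p of these 5 lay between 0.828 and 1. With each mouse left out the slope of Clec2d ran from 0.02 to 0.07 and that of Clec4a3 from 0.0033 to 0.016. The slopes of Clec2i and Clec4a1 turned negative without mouse 1, at -0.03 and -0.05, and that of Clec4a1 also without mouse 4, at -0.0099.

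By role, the 3 expressed activating receptors all had negative slopes, between -0.19 and -0.05, although that of Clec7a was -0.0033 without mouse 2. Negative slopes made up 67.9% of those of all expressed genes. Clec4d and Clec4e are not independent, and Clec4e reached the level only through the mice in which it was high. The 2 expressed DCIR relatives had slopes of 0.0033 and 0.0083, and the 2 expressed Clr genes had 0.02 and 0.04. A test of the difference between roles was not made. The 25 members under the level were fitted without a call: 13 had a negative slope and 12 a positive one. Of all genes under the level 35.7% had a negative slope. That share is taken over genes that include those with the same value on all 5 arrays, which have no slope. No Clec member was such a gene, so the count of the 25 cannot be compared with that share. Slopes of the 25 lay between -0.06 for Clec10a (± 0.035) and 0.04 for Clec4a2 (± 0.040). Of the 25, 0 had an unadjusted p under 0.05, against 2.26% of the genes under the level. The lowest was that of Clec1b, at 0.0919, on intensities between 7.02 and 8.46.

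**Figure D3:**
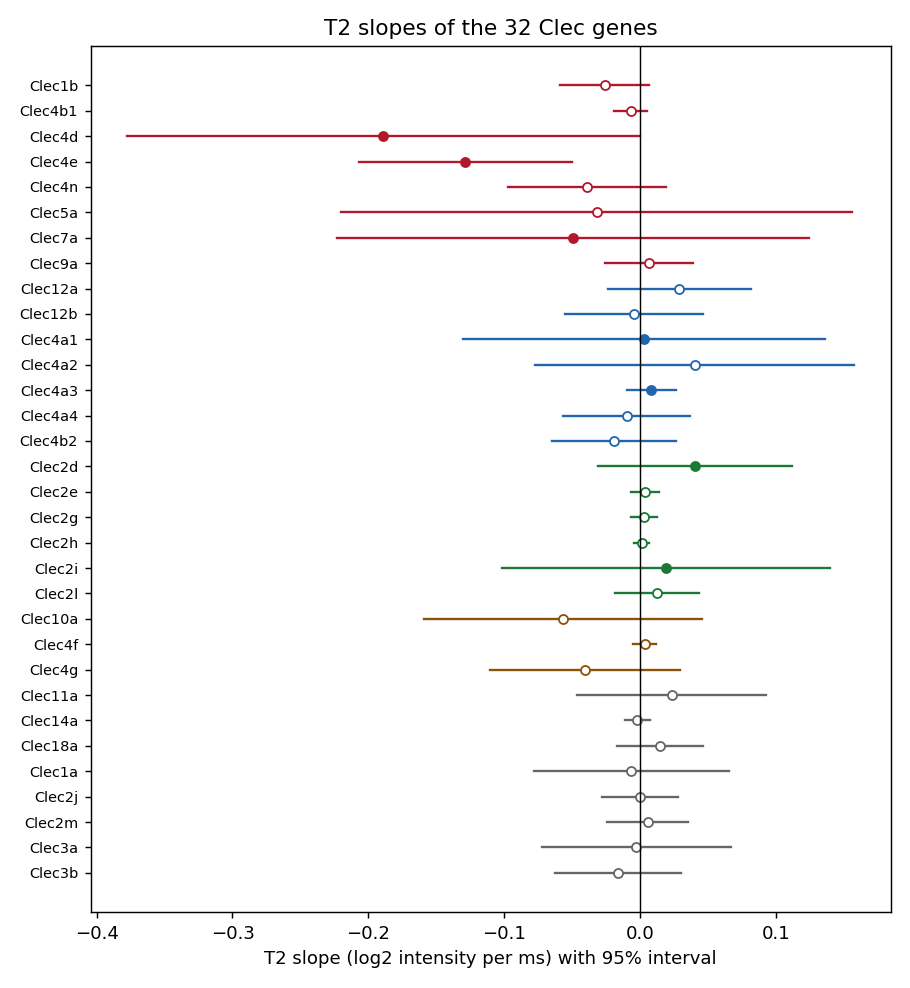
Slope on T2, in log2 units per ms, for the 32 Clec genes, ordered by role, with 95% intervals of the moderated fit. Filled points are the 7 expressed genes and open points the 25 under the level; only the intervals of Clec4d and Clec4e do not include 0.

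On chromosome 6 the measured members formed 2 clusters in the RefSeq gene order, with Clec2l, Clec5a and Clec4f apart. The cluster from Clec4a1 to Clec4e holds 9 Clec genes, of which 4 were expressed: Clec4a1 and Clec4a3 at its first end, and Clec4d and Clec4e, adjacent to each other, at its last. The 5 between them, Clec4a4, Clec4b1, Clec4a2, Clec4b2 and Clec4n, had mean log2 values from 2.64 to 4.55. The cluster from Clec2j to Clec7a holds 14, of which 13 were measured and 3 were expressed. In the first cluster the slopes were 0.0033 and 0.0083 at the end with Clec4a1 and Clec4a3, and -0.19 and -0.13 at the end with Clec4d and Clec4e. That difference was not tested.

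Promoter windows are shown for the neighbours Clec4d and Clec4e, whose values ran alike, for Clec4a1 from the other end of their cluster, and for Clec7a, the other expressed activating receptor. Each runs from 250 bases before to 50 bases after a transcript start in RefSeq. Capitals mark the letters GAGGAA, a core recognised by the myeloid factor PU.1, read on either strand (TTCCTC is the other strand). This motif occurs in 28.28% of the 32851 RefSeq promoter windows of this length.
Clec4d (GRCm38.p6, chr6:123261857-123262156, plus strand): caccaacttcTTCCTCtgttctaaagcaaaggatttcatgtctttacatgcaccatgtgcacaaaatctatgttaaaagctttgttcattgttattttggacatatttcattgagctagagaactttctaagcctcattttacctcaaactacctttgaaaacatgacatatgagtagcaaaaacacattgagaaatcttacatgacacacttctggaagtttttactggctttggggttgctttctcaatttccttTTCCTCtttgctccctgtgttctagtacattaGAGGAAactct
Clec4e (GRCm38.p6, chr6:123289822-123290121, minus strand): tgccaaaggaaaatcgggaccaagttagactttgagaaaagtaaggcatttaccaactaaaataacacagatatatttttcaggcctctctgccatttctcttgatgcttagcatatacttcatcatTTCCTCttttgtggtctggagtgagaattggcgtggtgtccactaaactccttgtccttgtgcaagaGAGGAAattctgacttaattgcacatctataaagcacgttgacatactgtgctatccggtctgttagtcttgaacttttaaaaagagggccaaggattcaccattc
Clec7a (GRCm38.p6, chr6:129472730-129473029, minus strand): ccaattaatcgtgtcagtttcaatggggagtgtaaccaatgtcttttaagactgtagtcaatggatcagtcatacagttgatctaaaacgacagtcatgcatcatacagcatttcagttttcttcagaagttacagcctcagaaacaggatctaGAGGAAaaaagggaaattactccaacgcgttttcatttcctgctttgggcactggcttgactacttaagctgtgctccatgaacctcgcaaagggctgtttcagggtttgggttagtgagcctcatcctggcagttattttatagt
Clec4a1 (GRCm38.p6, chr6:122921598-122921897, plus strand): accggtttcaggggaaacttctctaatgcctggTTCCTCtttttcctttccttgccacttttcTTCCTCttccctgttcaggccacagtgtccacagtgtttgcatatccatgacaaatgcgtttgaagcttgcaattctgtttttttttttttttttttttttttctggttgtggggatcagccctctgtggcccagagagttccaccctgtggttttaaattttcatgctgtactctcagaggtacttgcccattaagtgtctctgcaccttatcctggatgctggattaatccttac
Clec4d holds 3 matches, 2 of them after the start, Clec4e and Clec4a1 hold 2 each and Clec7a holds 1. Of the 7 expressed genes, which had 10 windows, 5 had a match in at least 1 of their windows, the exceptions being Clec2d and Clec2i. Of the 18 genes under the level with a window, which had 18 windows, 9 had a match. The motif shares over RefSeq count windows and not genes, so the count of the 7 genes is not like them. The AP-1 motif TGANTCA, found in 7.808% of all windows, was in 0 of the 7 and in 6 of the 18. The 9 letters TTGCNNCAA, read here for C/EBP, were found in 2.079% of all windows and in none of either set. C/EBP sites of other spacing or letters were not searched, so this count does not show whether the windows hold C/EBP sites. A match is a stretch of letters and no measured binding site, and windows of a shared cluster are related in sequence.

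Cell type markers varied between the same mice, and their values are set beside the members here. The means of the 7 expressed macrophage genes were 9.18, 9.22, 8.70, 8.05 and 8.04 in mice 5, 4, 3, 2 and 1. They too were higher in the 3 mice of lower T2. All 7 slopes were negative, against 67.9% of all expressed genes, and 5 had an unadjusted limma p under 0.05, against 5.29%. The summed intensities of 8 neutrophil genes were 1777, 960, 2979, 1035 and 1337 in the same order. They were highest in mouse 3, where Clec7a, Clec5a and Clec10a were also highest and where Clec4d stood above its fitted line. They were lowest in mouse 4, where Clec4d and Clec10a were above mice 1 and 2. The list of conventional dendritic cells 2 was also highest in mouse 3, with means of 7.29, 7.36, 7.48, 7.31 and 7.25 over 5 genes. Ly6g, the surface marker that defines neutrophils, was under the level, at a mean log2 of 4.73. Mast cell genes had means of 6.99, 6.79, 6.73, 6.25 and 5.62 over 4 genes. Both Clec4d and Clec4e are known in myeloid cells, macrophages and neutrophils among them, and the part of each cell type in their values was not tested.

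The monocyte genes had means of 8.13, 7.81, 8.32, 7.85 and 8.39 over 6 genes in mice 5, 4, 3, 2 and 1. Mouse 1 was the highest over these 6 and mouse 4 the lowest, while over all 7 monocyte genes mouse 3 was the highest, at 8.18 against 8.10 in mouse 1. Clec4a1 was highest in mouse 1 and lowest in mouse 2, while Clec4d was lowest in mouse 1. The T cell genes had means of 8.42, 8.49, 8.54, 8.94 and 8.19 over 7 genes, with the highest in mouse 2, the mouse of highest Clec2d. The B cell genes had 9.44, 9.37, 8.92, 8.73 and 9.66 over 6 genes, with the highest in mice 1 and 5, the mice of highest Clec2i, and the lowest in mouse 2. The 5 acinar genes had summed intensities of 751, 628, 626, 456 and 896, so this list too was highest in mice 1 and 5, as Clec2i was, and its extremes in mice 1 and 2, like those of the B cell list, were those of Clec4a1. These are descriptions over 5 mice, too few for a correlation, and the part of each cell type was not tested. For Clec9a, 3 of 7 genes listed for cross-presenting dendritic cells were expressed, Itgae, Irf8 and Wdfy4, against 33.1% of all genes. Xcr1, their chemokine receptor, had a mean log2 of 4.16. Batf3, Cadm1 and Tlr3 were also under the level, at 5.52, 5.50 and 3.81.

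**Figure D4:**
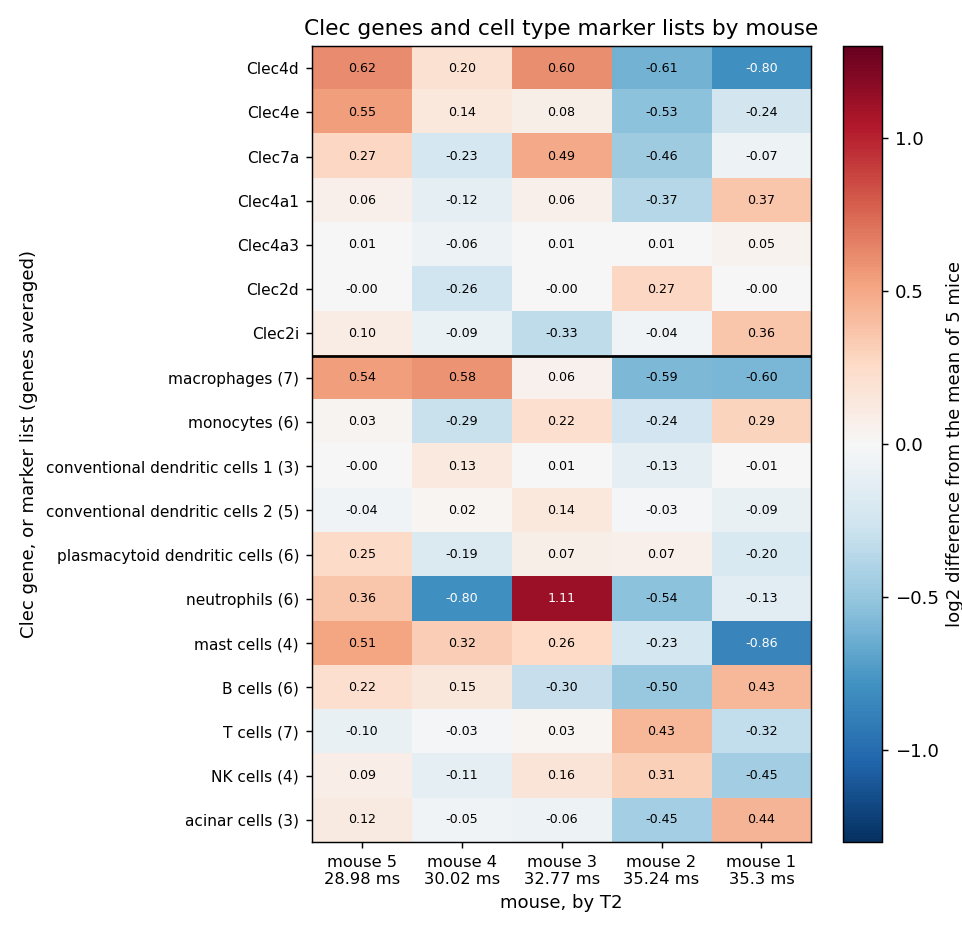
Log2 difference of each mouse from the mean of the 5 mice, for the 7 expressed Clec genes (above the line) and for the mean of the expressed genes of each marker list with at least 3 of them (below, number of genes in brackets). Columns run from the lowest T2 (mouse 5) to the highest (mouse 1). Clec4d and Clec4e are above their mean in the first 3 columns, as are the macrophage and mast cell lists. The neutrophil list and that of conventional dendritic cells 2 peak in mouse 3.

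The signalling partners of the activating receptors were expressed for the most part. Of 16 genes listed, 15 had a probe set and 13 were expressed, of which 11 had a negative slope, against 67.9% of all expressed genes. Of the 13, 0 had an unadjusted p under 0.05. The median slope of the 13 was -0.03 log2 per ms. Fcer1g, which encodes the gamma chain adaptor that Clec4d and Clec4e need, had a slope of -0.03 ± 0.038. Tyrobp, which encodes DAP12, had a slope of -0.04 ± 0.029, Syk -0.08 ± 0.075, the kinase gene Prkcd -0.04 ± 0.031 and the exchange factor gene Vav3 -0.03 ± 0.012. Without mouse 2, the lowest for Prkcd, the slopes were -0.0020 for Syk, -0.00037 for Prkcd and -0.01 for Tyrobp, and without mouse 1 they were -0.17, -0.07 and -0.04. Vav3 ran from -0.04 to -0.02 with each mouse left out. Card9, the adaptor between Syk and NF-kB, was under the level at 5.35 ± 0.048 (SD, n = 5). The 3 phosphatases that ITIM receptors recruit were expressed, with slopes of -0.0047 ± 0.013 for Ptpn6, -0.02 ± 0.012 for Ptpn11 and -0.03 ± 0.021 for Inpp5d, and 0 had an unadjusted p under 0.05. Without mouse 2, the lowest for Inpp5d, the slopes were -0.0049 for Inpp5d and -0.01 for Ptpn11, and without mouse 1 they were -0.05 and -0.04.

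Of 16 myeloid genes with a C-type lectin domain but another name, 4 were expressed, 3 of them with a negative slope and 0 at an unadjusted p under 0.05. Over all expressed genes 67.9% had a negative slope and 5.29% an unadjusted limma p under 0.05. Cd93, a receptor of myeloid and endothelial cells, had a slope of -0.07 ± 0.032, the thrombomodulin gene Thbd -0.05 ± 0.036, the DC-SIGN relative Cd209a -0.0096 ± 0.030 and Ly75, the endocytic receptor DEC-205, 0.01 ± 0.024. Without mouse 2 the slopes were -0.04 for Cd93 and -0.0055 for Thbd, and without mouse 1 they were -0.09 for both. Of 15 lymphoid genes measured 4 were expressed, 1 with a negative slope and 0 at an unadjusted p under 0.05. The activation marker Cd69 had -0.05 ± 0.055, the low-affinity IgE receptor Fcer2a 0.01 ± 0.10, the natural killer chain Klrd1 0.0077 ± 0.041 and the B cell receptor regulator Cd72 0.0016 ± 0.051. Klrb1c, which encodes the NK1.1 antigen, had a mean log2 of 2.68, with the same value on all 5 arrays. Of 8 collectin and selectin genes measured none was expressed, and Colec12, a scavenger collectin, had an unadjusted limma p of 0.0299 under the level, with a slope of -0.04 ± 0.011. Among genes whose proteins the receptors bind, Actb (slope -0.0098 ± 0.010) and Vim (-0.03 ± 0.054) were expressed and Pdpn, the ligand of CLEC-2, was not, at a mean log2 of 4.59.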

How the data were processed

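Leukocytes positive for CD45 were isolated by FACS out of the dissociated organ of 5 mice, total RNA was taken with TriZol and labelled with biotin, and every animal has 1 array, per the labels. What the authors deposited is an intensity for each probe set, not on a log scale, for which the submitters' processing notes name RMA and Affymetrix Power Tools. No version or build is given there. RMA sets the arrays to like distributions, so a change of total RNA per cell is not visible.

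The intensities of 35556 probe sets were put on the log2 scale. Names came from GEO's platform annotation, in which 21789 probe sets have 1 symbol; for a gene with several, the probe set of highest mean was used. Of the RefSeq genes (GRCm38.p6) named Clec and a digit, Clec16a aside, 32 of 33 were measured; Clec2f was not analysed here. The slope of log2 intensity against T2 came from limma 3.58.1 (lmFit, eBayes; R 4.3.3) over the 6603 genes with a mean of at least 6, with 3 residual degrees of freedom, two-sided, with Benjamini-Hochberg adjustment. The number of arrays limits the precision. The limma p-values set each slope against the scatter of these 5 mice around the fitted line, with the variance moderated across genes. The fit was tested on simulated data. Of 163 listed genes 9 had no probe set of their own.

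The members and lists were chosen with earlier results of these data known. All expressed members are named, then those with means from 5 to 6, the extremes of the rest, and up to 4 expressed genes with the largest moderated t of each pathway list; marker lists are given by their means rather than by gene, a departure from that rule, and other genes were named after their values were seen. Alternatives were filters at 5, at 7 and none, quantile normalization repeated, centring of arrays, averaging of probe sets, ranks of T2 (rescaled to its range in ms), another variance model, removal of genes with equal values, a threshold of 0.10 and each mouse left out, with the genes of the 5-mouse filter kept for the slopes. The exact permutation of T2 was added after the values were seen. Promoter sequences are RefSeq's; 25 of the 32 members had one.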

Additional observations from a re-analysis of the deposited data

Results flagged for a closer look

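Each value was screened for 1 mouse that stood apart from the other 4, by its gap to the nearest mouse as a share of the whole range (above 0.71). Chance alone gives about 1 in 20 for values without ties. Among the 7 expressed Clec genes there was none. Of the 32 members 11 were past this limit, all of them under the expression level and with equal values on 3 or more arrays. Such equal values were found in 69.2% of all genes under the level, and the 1 in 20 does not apply to them. The share of all genes past the limit was not counted, so the 11 are no sign of an excess in this family. The gap share was 1 for Clec2e in mouse 2, Clec2g in mouse 4, Clec4b1 in mouse 5 and Clec4f in mouse 1. There the other 4 arrays had 1 value, which fixes the gap share at 1. Clec4a2 read log2 4.10 in mouse 4, against 4.66 to 4.68 in the others (gap share 0.959). Clec4n read 4.48 in mouse 5, against 4.09 to 4.15 (0.853), and Clec4g read 3.36 in mouse 1, against 3.72 to 3.82 (0.776). The gap share was 0.911 for Clec3b in mouse 1, 0.886 for Clec18a in mouse 5, 0.814 for Clec3a in mouse 3 and 0.722 for Clec12b in mouse 3.

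Of 17 pathway genes 4 were past the limit, each in mouse 2. Inpp5d read 8.96 there, against 9.26 to 9.33 in the others (0.814), Prkcd 8.39 against 8.76 to 8.90 (0.733), Actb 13.03 against 13.15 to 13.19 (0.76) and Ly75 7.34 against at most 7.09 (0.723). Of 15 list means 1 was past it, that of the 3 ITIM phosphatases, at 8.76 in mouse 2 against 8.95 to 8.99 (0.826).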

How the results depend on the processing

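No Clec gene passed the adjusted threshold under any alternative run, with the lowest adjusted p of a member between 0.139 and 0.852 over the alternatives that keep all mice. Clec4d and Clec4e kept negative slopes under each alternative that kept all mice and tested them, from -0.23 to -0.18 and from -0.14 to -0.12, and Clec7a from -0.06 to -0.04, although with each mouse left out Clec7a ran from -0.0898 to -0.0033, the highest without mouse 2. The count of expressed members was 4 at a level of 7 and 32 with no filter, by construction, and 6 or 7 with each mouse left out. Members at an unadjusted p under 0.05 numbered 1 at a level of 5 or with no filter, and 0 at a level of 7, which removes both. Members with a negative slope were 1 at a level of 7 and 16 with no filter. The median slope was -0.0494 when genes of equal values were left out, which removes Clec2d and Clec4a3. Over all genes 3 passed at a level of 7, 4 with renormalized arrays, 35 without genes of equal values and 3 at a threshold of 0.10. With each mouse left out the count of members at an unadjusted p under 0.05 ranged from 0 (without mouse 5) to 2 (without mouse 3), with 1 without mouse 1, 2 or 4. Negative slopes then numbered 3 to 5 and the median slope ran from -0.0496 to 0.0163, the lowest without mouse 1.

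Some slopes changed sign. Ptpn6 had 0.00288 with renormalized arrays and 0.00155 on ranks of T2, Cd209a 0.00116 with renormalized arrays and Klrd1 -0.0123 on ranks. With each mouse left out the ranges included both signs for Clec2i (-0.0255 to 0.0578), Clec18a (-0.0036 to 0.0243, fitted without a call), Clec4a1 (-0.0496 to 0.0573), Ptpn6 (-0.0189 to 0.00946), Ly75 (-0.0163 to 0.0322), Cd209a (-0.0259 to 0.00814), Cd69 (-0.0805 to 0.0238), Klrd1 (-0.0400 to 0.0553), Fcer2a (-0.0976 to 0.0711), Cd72 (-0.0309 to 0.0409), Actb (-0.0168 to 0.00162) and Vim (-0.0892 to 0.0230). The cause was not tested. No paired analysis was possible because the mice form 1 group. Signal over background limits the 25 members under the level.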
